A study of Mus musculus with 21 samples.

Results

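E14 mouse embryonic stem cells that had been in 1 µM BMH-21 for 8 h were compared with untreated cells of the same line, gene by gene, from polyA RNA-seq. The 6 libraries compared, 3 per group, were chosen by their treatment labels and belong to a series of 21, and all 14666 genes with a log2 value above 0 in at least 3 of the 21 libraries were tested out of 20900 in the deposited table. BMH-21 is a planar DNA-binding small molecule that blocks RNA polymerase I, which makes the precursor of ribosomal RNA in the nucleolus. Both groups are the line E14, of 129 strain, kept in serum medium with LIF, and the labels name no engineered allele in either. The cells had been plated the day before, the untreated cells are labelled 0 h, and the treated cells received the compound with a change of medium. The 8 h cells also spent 8 h longer in culture, and no vehicle or medium-change library of 8 h was analysed here, so the compound, the medium change and the time cannot be told apart. Results are also given for 1 µM BMH-21 at 2 h and 4 h and for 1 µM CX-5461, another RNA polymerase I inhibitor, at 8 h, with 3 libraries each. The libraries of 1 µM CX-5461 at 2 h and 4 h entered only the filter and the shared fit over all 21 libraries. The labels do not say that the 3 replicates were separate cultures. Each p-value thus measures only spread between libraries, and the test draws much of that spread from other genes of like level.

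When ribosomal RNA synthesis stops, the nucleolus comes apart and a small complex of the ribosomal proteins RPL5 and RPL11 with 5S RNA binds MDM2, the ubiquitin ligase that keeps p53 scarce. p53 protein then builds up and switches on genes of cell cycle arrest, apoptosis and metabolism. In mouse embryonic stem cells the rim of the nucleolus also holds silent chromatin, and Dux, which encodes the factor that switches on genes of the 2-cell embryo, is among the genes repressed there. In bulk RNA, fewer cells of a type and less RNA per cell cannot be told apart.

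The 6 libraries held between 49581623 and 62812641 reads on genes. A deposited log2 level of 0 stood for 45 to 86 reads in these libraries, so that levels below 0 rest on few reads. The deposited scale counts the treated libraries as larger than their reads: effective library size divided by total reads was 1.21, 1.38 and 1.21 in the treated replicates 1 to 3 and 0.839, 0.832 and 0.948 in the untreated ones. Median-ratio factors computed from the recovered reads lay between 1.06 and 1.09 in the treated libraries and between 0.952 and 0.960 in the untreated. As a result the median log2 fold change over all genes tested was -0.40 as deposited, -0.19 after centring each library on its median and -0.04 with median-ratio factors, and a fold change is best read against those values. Treated replicate 2 stood apart from its group: the chi-square per degree of freedom of its reads was 27.3 against replicate 1 and 25.9 against replicate 3, while replicates 1 and 3 gave 5.11, and the 3 untreated pairs gave 3.98 to 12. Pluripotency markers were high in all 6 libraries, with summed linear levels of 6790 to 7750 in the untreated and 3030 to 3220 in the treated libraries, and the markers Dux and Krt5 were high and Hes3 low in the treated libraries, as listed below.

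Most genes differed. With limma's moderated test and Benjamini-Hochberg adjustment, 11948 genes (81.5%) passed as deposited: 3599 genes (24.5% of those tested) were higher and 8349 (56.9%) lower after 8 h of BMH-21. After centring 4884 (33.3%) were higher and 7523 (51.3%) lower. With median-ratio factors 5753 were higher and 6352 lower. Of the genes changed at least 2-fold, 2107 (14.4%) rose and 2697 (18.4%) fell as deposited. That balance turned with the scale: 2431 (16.6%) against 1699 (11.6%) after centring, 2711 against 1209 with median-ratio factors and 2084 against 2020 after quantile normalization. A change that passed on the deposited and on the centred scale, with no overlap between the 3 treated and the 3 untreated libraries, was found in 3410 genes (23.3%) upward and 7251 genes (49.4%) downward. Rises were more frequent among genes of low level: with genes split by mean level into 5 groups of equal size, 37.2% of the lowest group rose at least 2-fold after centring, against 4.30% of the highest, and 14.1% and 12.2% fell at least 2-fold. The filter on low values bears on this: a gene of low level could enter only through the libraries where it was highest, so this excess of rises is in part fixed by the filter and supports nothing by itself.

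**Figure D1:**
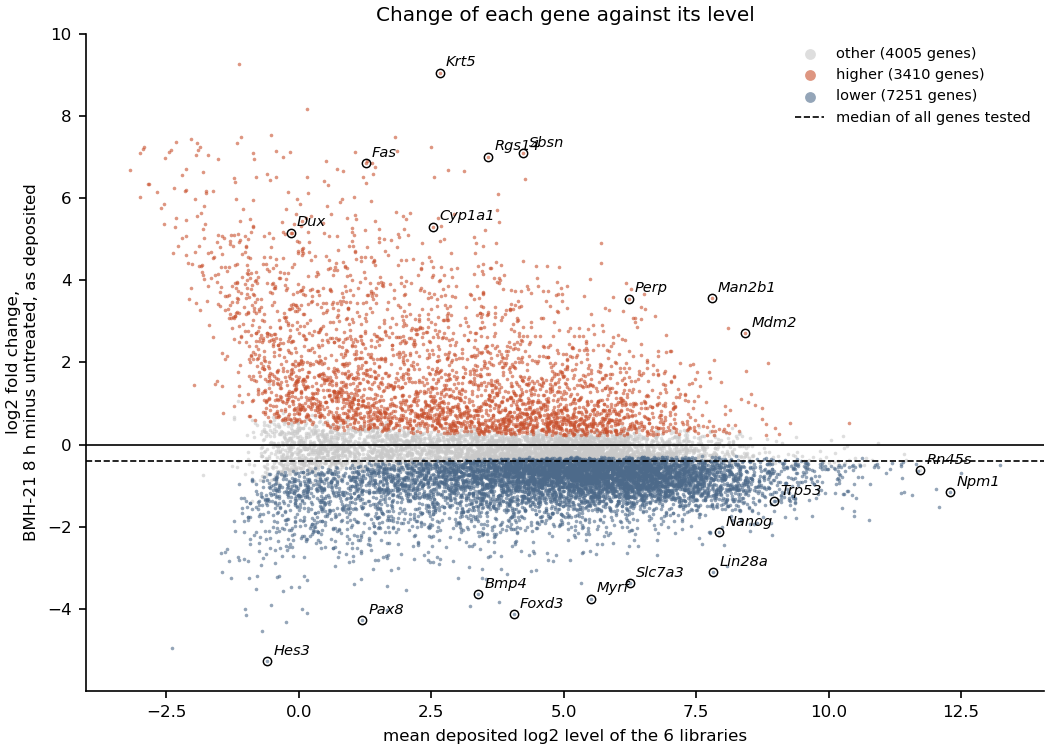
Log2 fold change of each of the 14666 genes tested (y axis, treated minus untreated, deposited scale) against its mean deposited log2 level in the 6 libraries (x axis); red points passed upward on both scales without overlap (3410 genes), blue points downward (7251 genes), grey points did neither, and the dashed line is the median of all genes, -0.40. Rises of over 4 on the log2 scale lie mostly at mean levels below 5, while Lin28a, Nanog and Trp53 are among the fallen genes of high level.

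The 10 largest rises among genes with a mean log2 level of at least 0 were led by Krt5, which encodes a keratin of basal skin cells. Krt5 (chr15:101707069-101712905, GRCm38) stood at -2.16, -2.12 and -1.36 in the untreated libraries (10, 10 and 18 reads) and at 7.08, 7.05 and 7.44 in the treated ones (8086, 11441 and 10879 reads). The groups lay far apart, with a log2 fold change of 9.06 (SE 0.138, adjusted p = 4.7e-95, limma), or 535-fold. Klhl30, a kelch-repeat gene, had 7, 1 and 2 reads untreated and 1086, 1445 and 1369 treated (log2 fold change 8.17, SE 0.232). Dusp13, which encodes a dual-specificity phosphatase known from testis and muscle, rose from 14, 7 and 16 to 2731, 3683 and 3327 reads (7.49, SE 0.159). These leading rises are of genes known from skin, muscle and testis. The other 7 were Krt15, another basal keratin (7.25), Slco2b1, an organic anion transporter (7.15), Ckm, muscle creatine kinase (7.12), Sbsn, which encodes the epidermal protein suprabasin (7.11), Rgs14, a regulator of G-protein signalling (7.02), Marc1, a mitochondrial reductase (6.90), and Krt36, a hair keratin (6.90). The 10 were ranked only among genes that passed on both scales with no overlap between groups.

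Sbsn and Rgs14 had the highest untreated levels of the 10. Sbsn stood at 0.82, 0.67 and 0.53 untreated and at 7.69, 7.66 and 7.99 treated, from 82, 72 and 68 to 12382, 17449 and 15966 reads. Rgs14 stood at 0.27, 0.09 and -0.16 untreated and at 7.02, 7.02 and 7.21 treated. In both genes the replicates of a group lay close together and the groups far apart. Ckm had the widest untreated spread of the 10, with 2, 11 and 19 reads, against 1465, 1954 and 1699 treated.

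The keratins form 2 gene clusters in the genome. A stretch of each was examined after Krt5, Krt15 and Krt36 had been seen among the top rises. These genes are part of the totals below, which describe the stretches and test nothing. Krt80 and Krt85, too low to test, were not among the genes counted. On chromosome 15 (GRCm38, 101412403 to 102032026) 28 genes from Krt7 to Krt18 were counted. Of these, 11 were tested, and 8 rose and 3 fell as deposited, where 24.5% and 56.9% of all genes tested did so. Among the rises all but Krt7 lay below 0 in every untreated library. Those genes could enter the test only through treated libraries, so the count of rises supports nothing by itself. Counting also the genes too low to test, every treated library lay above every untreated one in 16 of the 28 and below in 4. Over all genes of the table the shares above and below were 23.4% and 45.7%. No floor of reads was set for this. At 0 reads the value was -6.91, -7.43 and -6.97 in the treated libraries and -6.55, -6.51 and -6.57 in the untreated. A gene without reads in all 6 libraries thus counts as below, and the 45.7% is in part set by library size. Gm6042, at 0 reads in each untreated library and 1 in each treated one, counts as above. These counts therefore support nothing by themselves. Most rises lay close together, from Krt82 (4.12) over Krt75 (5.47), the gene models Gm5414 (7.20) and Gm5478 (7.12), Krt6b (5.86) and Krt6a (6.50) to Krt5, with Gm5476 and Gm5477 between them at no more than 3 reads in any library. Gm5414 was at 0 reads in each untreated library and at 84, 122 and 123 in the treated ones, which is at least 24.7-fold higher against a floor of 3 reads per library. At 0 to 5 untreated reads, as here, the fitted log2 fold change depends on the 0.5 reads added to each count. Krt7, a keratin of simple epithelia at the edge of the stretch, rose from 103, 89 and 85 to 2805, 4413 and 3406 reads (4.67). Krt1 lay in the same cluster at 19, 20 and 16 reads untreated and 26, 27 and 16 treated, where the groups overlapped, and Krt2, Krt76 and Krt77 had at most 9 reads in any of the 6 libraries. Krt8 and Krt18, the keratin pair that stem cells express, had higher levels than most of the cluster in untreated cells and did not rise. Krt79 fell by 1.08, Krt18 by 0.74 (adjusted p = 3.1e-08, limma) and Krt8 by 0.29 as deposited, a call lost after centring (-0.08, adjusted p = 0.33, limma). Keratin genes are close in sequence, and reads shared between copies such as Krt6a and Krt6b may be split between them, so that the values of single copies are uncertain.

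On chromosome 11 (99232761 to 100269951) 33 genes were listed from Krt222 to Krt42 and 13 were tested. As deposited 8 rose and 5 fell, where 24.5% and 56.9% of all genes tested did so. Of the rises, Krt36, Krt15 and Krt33a lay below 0 in every untreated library and could enter only through treated ones. Every treated library lay above every untreated one in 15 of the 33 and below in 5, against 23.4% and 45.7% of all genes of the table. With no floor of reads, Krtap3-2, Krt32 and Krt34 count as above at 0 reads in each untreated library and at most 4 in any treated one. These counts, too, support nothing by themselves. Krt36 rose from 12, 10 and 8 to 1477, 2208 and 1874 reads and Krt15 from 21, 35 and 12 to 3763, 5758 and 4984. Beside them Krt12 rose by 2.38, Krt33a by 3.45, Krt13 by 1.96, Krt19 by 1.06, Krt14 by 1.73 and Krt16 by 1.33, and Krt35, too low to test, had 0 reads in each untreated library and 21, 27 and 34 in the treated. Krt17 and Krt42, next to Krt16 in order, went the other way: Krt42 stood at 5.93, 5.93 and 5.72 untreated and at 4.03, 3.97 and 4.05 treated (-1.85, SE 0.109), and Krt17 fell by 1.46. Krt222 (-1.44), Krt9 (-1.06) and Krt10 (-0.41) were the other falls, the last a call lost after centring (-0.20, adjusted p = 0.082, limma), so that genes of both clusters moved in both directions. Across the list of 22 keratins 15 were tested, and 9 rose and 6 fell as deposited (9 and 4 after centring), where 24.5% and 56.9% of all genes did so, with a median log2 fold change of 1.33; 4 of the 15 lay below 0 in every untreated library and could enter the test only through treated libraries, so this median supports nothing by itself. The 6 keratins in the table that were too low to test had at most 26 reads in any untreated library and at most 38 in any treated one.

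**Figure D2:**
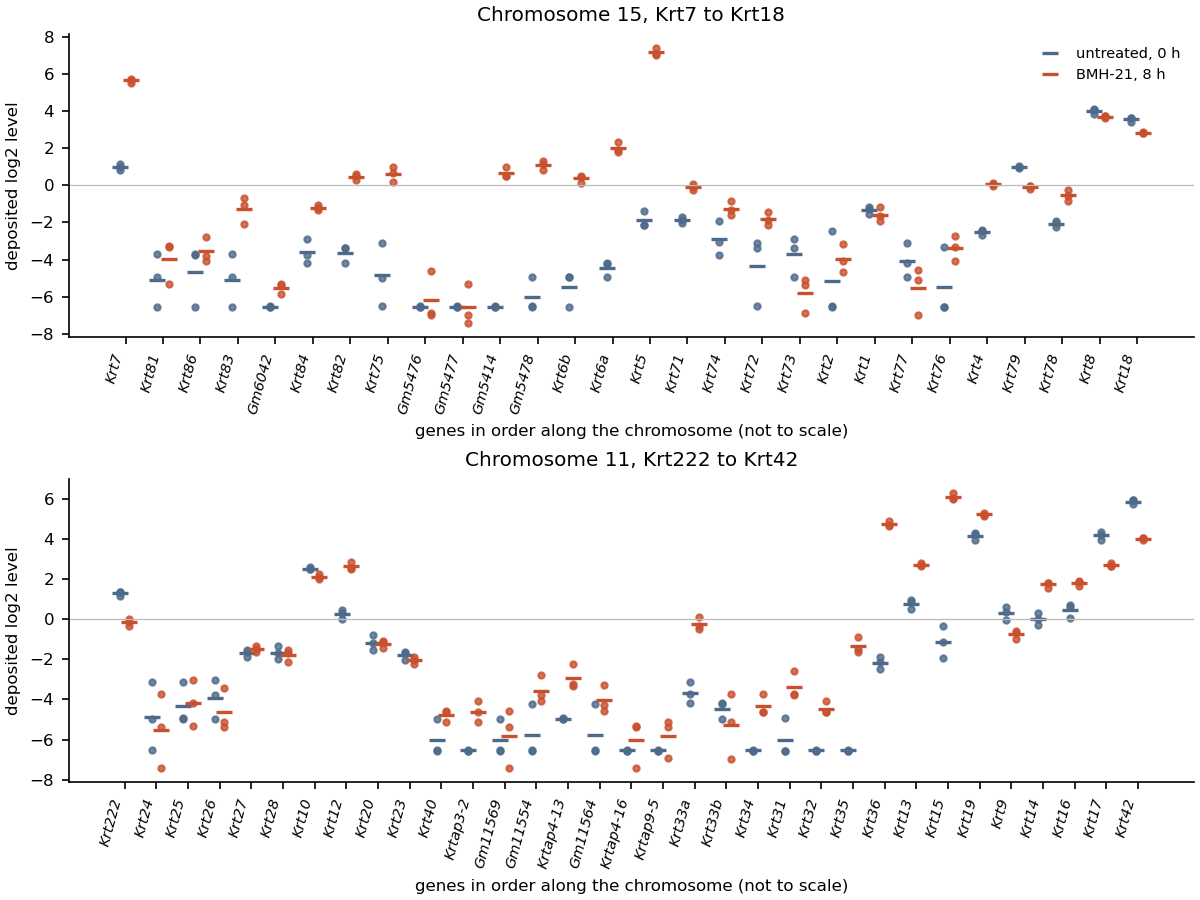
Deposited log2 level of the genes counted in the stretches of the 2 keratin clusters, in order along the chromosome. The upper panel holds 28 genes of chromosome 15 and the lower panel 33 of chromosome 11. Blue points are the 3 untreated libraries, red points the 3 treated ones and bars their means. Krt7, Krt5 and the genes from Krt82 to Krt6a stand far above their untreated levels, except Gm5476 and Gm5477, which had at most 3 reads, Krt36 and Krt15 do so in the lower panel, and Krt8, Krt18, Krt17 and Krt42 lie below theirs.

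Many other genes were nearly silent before treatment. In 3029 genes of the table each untreated library held at most 3 reads; 155 of these had at least 20 reads in every treated library, 75 at least 50 and 28 at least 100. In the opposite direction only Ctxn3, a gene of brain cortex, had at least 20 reads in every untreated library (44, 56 and 47) and at most 3 in every treated one (2, 3 and 1). Glp2r, the receptor for the gut hormone glucagon-like peptide 2, had 0, 2 and 0 reads untreated and 679, 858 and 832 treated. Spatc1, known from sperm and centrioles, had 3 reads in each untreated library and 581, 809 and 796 treated, Prss34, a mast cell protease, 1, 3 and 2 against 547, 775 and 639, and Tekt4, a structural protein of cilia, 2, 3 and 3 against 299, 579 and 523. These genes were chosen by their reads, so the values describe them and test nothing; 53 of the 155 passed the filter on low values.

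Among genes with a mean log2 level of at least 6, the 6 largest rises were of Ttll1, Slc4a11, Gpx3, Man2b1, Perp and Ddit4. Ttll1, a tubulin polyglutamylase, stood at 4.30, 4.25 and 4.05 untreated and at 8.08, 8.00 and 8.37 treated, a log2 fold change of 3.95 (SE 0.109, adjusted p = 1.2e-65, limma). Slc4a11, a membrane transporter of the bicarbonate transporter family, rose by 3.79 and Gpx3, secreted glutathione peroxidase, by 3.68. Man2b1, the lysosomal alpha-mannosidase, had the highest mean level of the 6 and went from 2951, 3153 and 2876 reads to 45840, 58418 and 53838 (3.57, SE 0.104). These 6 were likewise ranked only among genes without overlap between the groups.

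The 6 largest falls at that level were of Slc7a3, Lin28a, E130012A19Rik, Rcor2, Pcbp4 and Hmces. Slc7a3, a carrier of the amino acids arginine and lysine, stood at 7.96, 8.04 and 7.77 untreated and at 4.65, 4.45 and 4.57 treated (-3.37, SE 0.107, adjusted p = 1.6e-59, limma). Lin28a, the RNA-binding protein that holds back let-7 microRNAs in stem cells, fell from 32610, 31376 and 28988 to 5347, 6014 and 4642 reads (-3.11, SE 0.104). E130012A19Rik, a gene known by its clone name, fell by 2.95, Rcor2, a corepressor that works with the histone demethylase LSD1, by 2.70, Pcbp4, an RNA-binding protein, by 2.64, and Hmces, which protects abasic sites in DNA, by 2.48. The 6 falls, too, were ranked only among genes that passed on both scales without overlap.

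The 10 largest falls at mean levels of at least 0 held several developmental genes. Pax8, a paired-box factor of thyroid and kidney, fell from 510, 440 and 459 reads to 31, 34 and 42 (-4.27, SE 0.147, adjusted p = 1.7e-55, limma). Foxd3, a forkhead factor of pluripotent and neural crest cells, stood at 6.11, 6.12 and 6.12 untreated and at 2.33, 1.67 and 1.98 treated (-4.13, SE 0.122). Bmp4 (-3.64), Fgf17 (-3.94) and Fgf15 (-3.54) encode secreted signals, Myrf (-3.76) a membrane-bound transcription factor, Kirrel (-3.83) a cell adhesion protein and Gbp4 (-4.03) a guanylate-binding protein induced by interferon. AI118078 fell from 233, 219 and 193 reads to 19, 28 and 11, and Vax2os fell by 4.01 on the log2 scale; Vax2os is antisense to Vax2, and the counting is not stated to use strand, so its reads and those of its partner cannot be told apart. Hes3, a repressor of the Hes family that is active in neural stem cells, fell further but lay at a mean level under 0: it had 218, 170 and 185 reads untreated and 10, 10 and 3 treated (-5.27, SE 0.231, adjusted p = 8.2e-45, limma). The 10 falls were ranked only among genes that passed on both scales without overlap, which Hes3 also did.

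**Figure D3:**
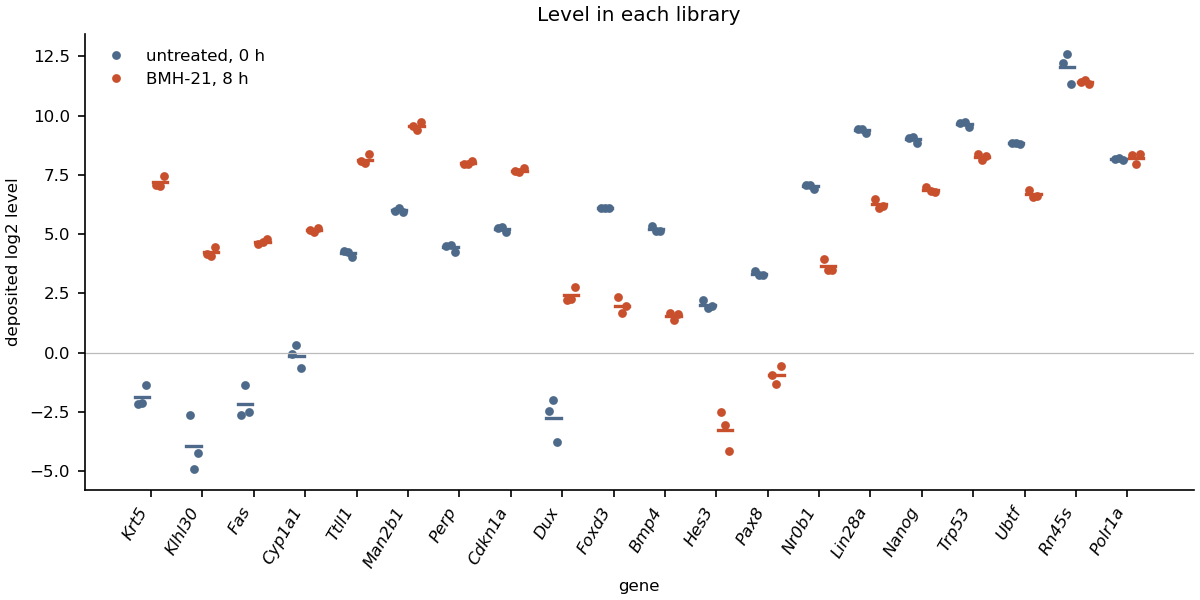
Deposited log2 level of 20 genes in each of the 3 untreated (blue) and 3 treated (red) libraries, with bars at the means. The 9 genes from Krt5 to Dux are higher in every treated library and those from Foxd3 to Ubtf lower, while Rn45s and Polr1a overlap between the groups.

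The counts of the gene lists are to be read against all genes tested, of which 24.5% were higher and 56.9% lower as deposited and 33.3% and 51.3% after centring. Genes of the p53 pathway rose more often than they fell. Of the 44 listed, all in the table and tested, 32 rose and 8 fell as deposited, and 35 rose and 4 fell after centring. Their median log2 fold change was 1.54 against -0.40 over all genes. Of the 44, 1 lay below 0 in every untreated library and could enter only through treated libraries. Trp53 itself, the p53 gene, was lower: it stood at 9.70, 9.73 and 9.54 untreated and at 8.38, 8.15 and 8.30 treated (-1.38, SE 0.101, adjusted p = 1.3e-25, limma), and it stayed lower on all scales tried. The largest rise was of Fas, the death receptor, from 7, 17 and 8 to 1440, 2192 and 1760 reads (6.85, SE 0.164). Perp, a membrane protein of p53-dependent apoptosis and of desmosomes, rose by 3.55, Trp73, which encodes the p53 relative p73, by 3.49, and Ddit4, an inhibitor of mTORC1 signalling, by 3.36. Perp stood at 4.52, 4.57 and 4.25 untreated and at 7.95, 7.97 and 8.08 treated. Apaf1, the scaffold of the apoptosome, followed at 3.08.

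The falls of the list were led by Ccnd1, cyclin D1, at -1.87, then Trp53, Tigar, a fructose bisphosphatase, at -1.20, and Ltbp4, a binding protein of latent TGF-beta, at -1.01. Bax, the pore-forming apoptosis protein, moved with the scale: -0.25 as deposited (adjusted p = 0.022, limma), not called after centring (adjusted p = 0.60), and 0.38 after quantile normalization. Ddb2, Plk3 and Xpc were likewise called lower as deposited and not after centring, where their values were -0.18, -0.07 and -0.05. The 4 members not called as deposited were Mdm4, the partner of MDM2 (0.23), the exonuclease gene Aen (0.20), Sesn1 (0.14) and Ei24 (-0.15); the first 3 were called higher after centring. Cdkn1a, which encodes the cell cycle inhibitor p21, and Ccng1, cyclin G1, were not among the named extremes and are given for their promoters, a choice made after their values were seen: Cdkn1a rose from 1798, 1810 and 1638 to 12149, 16933 and 13772 reads and Ccng1 from 11544, 11023 and 9925 to 57145, 72413 and 62294.

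p53 binds DNA as a tetramer over a pair of 10-base decamers. RefSeq promoters of the GRCm38.p6 build, from 250 bases before to 50 bases after the first listed start, could be matched for 11000 of the 14666 genes tested and were searched for the p53 consensus (a pair of decamers with the central C and G of each kept and a spacer of up to 3 bases); it is the same on both strands. At most 1 mismatch to the 20-base site was found in 13 promoters of the 11000, and Cdkn1a and Ccng1 are the members of the p53 list among them. They are printed 5′ to 3′ on the strand of the gene, with the matched site in capitals, since these are the p53 target genes whose windows hold the closest match. The Cdkn1a window is chr17:29090729-29091028 on the plus strand, with the site starting 51 bases before the first listed start. The Ccng1 window is chr11:40755237-40755536 on the minus strand, with the site starting 195 bases before its first listed start. Other starts of a gene were not searched, so distances to them are not given.
Cdkn1a: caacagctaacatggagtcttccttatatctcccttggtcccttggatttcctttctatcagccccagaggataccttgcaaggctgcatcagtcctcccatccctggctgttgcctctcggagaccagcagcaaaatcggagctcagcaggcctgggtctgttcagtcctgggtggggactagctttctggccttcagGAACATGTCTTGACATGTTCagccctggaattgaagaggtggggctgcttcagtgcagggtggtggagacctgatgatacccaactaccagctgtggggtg
Ccng1: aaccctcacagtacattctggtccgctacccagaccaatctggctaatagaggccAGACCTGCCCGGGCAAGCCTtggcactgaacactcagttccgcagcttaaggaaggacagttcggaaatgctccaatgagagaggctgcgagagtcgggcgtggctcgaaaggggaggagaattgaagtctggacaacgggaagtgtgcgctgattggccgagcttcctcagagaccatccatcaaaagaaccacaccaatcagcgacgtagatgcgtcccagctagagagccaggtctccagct
Both sites have 1 mismatch and no spacer. Sites with at most 2 mismatches were found in 7 of the 34 promoters of the p53 list (20.6%), in 38 of 1580 promoters of genes that rose at least 2-fold on both scales (2.41%), in 10 of 1203 of genes that fell at least 2-fold (0.831%) and in 1.37% of all 11000. A single matching decamer was found in 6.97% of all promoters, 10% of those of rising and 5.65% of those of falling genes. The other genes of the 13 moved in different ways: D6Ertd527e (4.41), 1700007K13Rik (3.33), Calhm2 (2.17) and Chd5 (1.67) rose at least 2-fold, Mthfd1 (0.23) rose less, Adnp (-1.02), Cnih1 (-0.90), Mrgbp (-0.90) and Gon4l (-0.69) fell, and Cfap126 (0.33) and Col6a6 (-0.35) did not pass on both scales without overlap. A match of letters is a description of the window, not evidence that p53 binds there.

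Most genes of the RNA polymerase I machinery were lower after BMH-21. Of 23 members tested none rose and 19 fell as deposited, and 4 rose and 18 fell after centring, where 56.9% and 51.3% of all genes were lower; the median was -0.76 as deposited, against -0.40 over all genes. Ubtf, the factor that holds ribosomal DNA open for transcription, fell most: it stood at 8.85, 8.86 and 8.79 untreated and at 6.85, 6.55 and 6.63 treated (-2.16, SE 0.103, adjusted p = 1.9e-41, limma). The polymerase subunit genes Znrd1 (-1.46), Polr2e (-1.35), Twistnb (-1.26) and Polr1b (-1.18) fell, and Rrn3, the initiation factor TIF-IA, fell by 0.49 as deposited but was 0.14 higher after quantile normalization. Polr1a, the catalytic subunit of the enzyme that BMH-21 acts on, did not differ as deposited: 8.18, 8.20 and 8.12 against 8.34, 7.97 and 8.38 (0.06, SE 0.105, adjusted p = 0.58, limma), and treated replicate 2 was its lowest value. After centring Polr1a was called higher, at 0.28 (adjusted p = 2.2e-05). Polr1e (0.22), Ttf1 (0.08) and Top1 (0.01) were the other members not called as deposited, and they make up, with Polr1a, the 4 called higher after centring.

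Rn45s, the ribosomal RNA precursor, is not polyadenylated, so its reads in polyA libraries measure what was carried over. It had 221391, 278123 and 123289 reads untreated and 164518, 249063 and 161576 treated. The groups overlapped on every scale shown. Its log2 fold change of -0.63 passed limma's test as deposited (adjusted p = 7.3e-04), with a moderated SD of 0.215 beside its own SD of 0.554, and did not pass after centring (-0.42, adjusted p = 0.26). After quantile normalization it was at 0.31 (adjusted p = 0.33), so these libraries give no direction for it.

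Ribosome assembly genes fell as a group. Of 73 nucleolar and ribosome assembly genes, 2 rose and 69 fell as deposited (4 and 67 after centring), with a median of -1.06, where 56.9% of all genes were lower as deposited and 51.3% after centring; 41 fell at least 2-fold as deposited and 21 after centring. Noc2l (-1.70), Urb2 (-1.68), Cirh1a (-1.60) and Nop2 (-1.60), all needed to process or assemble ribosomal subunits, led them, and the RNA helicase gene Ddx56 (0.49) and Pwp2 (0.43), of the small-subunit processome, were the 2 that rose. Of the 11 genes of the 5S complex and of MDM2 binding, 10 fell and none rose on the deposited and centred scales. Npm1, nucleophosmin, the abundant nucleolar chaperone, fell from 374604, 368178 and 309858 to 205454, 294004 and 207209 reads (-1.15, SE 0.095), Gnl3, nucleostemin, by 1.51, Rpf2, which loads the 5S complex, by 1.13 and Mybbp1a, a nucleolar regulator of p53, by 1.12. In Npm1 treated replicate 2 had more reads than the other treated libraries, but the 3 levels of 11.74, 11.73 and 11.69 were close. Rpl5 (-0.63) and Rpl11 (-0.60) were lower as deposited and centred and no longer so after quantile normalization (0.04, adjusted p = 0.26, and 0.02, adjusted p = 0.66, limma). Cdkn2a, which encodes the MDM2 inhibitor ARF, was the member not called (-0.21).

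The 79 cytosolic ribosomal protein genes are the clearest case where the scale sets the answer. Of the 77 tested, 74 were lower and none higher as deposited, 69 lower and none higher after centring, 40 lower and 2 higher with median-ratio factors, and 5 lower but 58 higher after quantile normalization. The median as deposited was -0.49, against -0.40 over all genes. Rpl10a (-0.96) and Rpl3 (-0.95) fell most, with Rps27 (-0.88) and Rpl13a (-0.79) next. Rps27 had only 83, 82 and 82 reads untreated, and Rpl26 and Rpl30, both below the filter, at most 33; these genes have near-identical processed copies, and their values are uncertain. No member changed 2-fold on the deposited or the centred scale.

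Host genes of small nucleolar RNAs, whose introns carry the guides of ribosomal RNA modification, fell without exception among the 15 tested, on all 4 scales tried. Snhg5 stood at 6.99, 7.11 and 6.70 untreated and at 4.60, 4.49 and 4.47 treated (-2.41, SE 0.112, adjusted p = 1.9e-42, limma). Snhg3 (-2.15), Snhg4 (-1.94) and Snhg12 (-1.63) followed, the list median was -1.45, and 10 of the 15 fell at least 2-fold as deposited and after centring. Of the 20 listed, Snhg15, Snhg16 and Zfas1 were not matched in the table, and Snhg9 and Snhg18, with at most 31 untreated reads, were not tested.

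Pluripotency genes fell together. Of 30 genes of the core and naive network, none rose and 28 fell as deposited, 22 of them at least 2-fold (17 after centring), with a median of -1.45; Klf5 (0.16) and Socs3 (-0.21) were not called, and Klf5 was the 1 member called higher after centring. Nr0b1, the nuclear receptor DAX1, fell from 6302, 6110 and 5731 to 922, 974 and 703 reads (-3.38, SE 0.111), and Prdm14, which guards the naive state, by 2.98. Foxd3 and Lin28a, already given, were the other 2 of the largest 4. Nanog fell from 24968, 24612 and 22021 to 7653, 9745 and 6973 reads (-2.13). Pou5f1, the gene of OCT4, stood at 10.71, 10.73 and 10.54 and then at 9.72, 9.70 and 9.74 (-0.94), and Sox2 at 9.42, 9.33 and 9.26 and then 8.31, 7.98 and 8.16 (-1.18). The fall was thus smaller in Pou5f1 and Sox2 than in Nanog, Esrrb (-2.28) or Zfp42 (-2.21), as a description of the fitted values.

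Genes of the next, formative or primed, state fell as well. Of 20 such genes tested out of 22 listed, 2 rose and 17 fell as deposited, with a median of -1.78. Fgf5, the classic marker of the primed state, went from 82, 79 and 66 to 16, 20 and 16 reads (-2.66, SE 0.263), Zic5 fell by 2.71, Zic2 by 2.64 and Fgf15 by 3.54. Wnt8a (1.15), a secreted WNT, and Fst (0.95), the activin antagonist follistatin, rose, and Sox4 (0.13) was not called. Fgf8 and Cer1 were too low to test, with at most 22 untreated reads.

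Hes, Pax and neural factors split. Of 25 tested out of 34 listed, 8 rose and 10 fell as deposited, and 12 rose and 10 fell after centring. Of the 25, 4 lay below 0 in every untreated library and could enter only through treated libraries. Beside Hes3 and Pax8, Pax6, the eye and forebrain factor, fell by 3.05 and Mir124a-1hg, host of the neuronal microRNA miR-124, by 2.80. Heyl (4.80) and Hey2 (2.39), transcriptional repressors downstream of Notch, rose, as did Dll1 (2.27), a Notch ligand, and Neurod1 (2.11), a neuronal differentiation factor. Heyl had 5, 7 and 5 reads untreated and 217, 291 and 250 treated. Hes3 and its relatives Heyl and Hey2 thus went in opposite directions. Of the 9 too low to test, Insm2 had 0, 4 and 2 reads untreated against 17, 29 and 22 treated, and Hes5 22, 12 and 9 against 7, 3 and 3. Of 24 extraembryonic and germ layer factors tested, 9 rose and 9 fell as deposited, with a median near 0. Of the 24, 3 lay below 0 in every untreated library and could likewise enter only through treated ones. Mesp1 (3.35), Pdgfra (2.01), Hand1 (1.45) and Cdx2 (1.36), known from mesoderm, primitive endoderm or trophoblast, rose; Bmp4, Tead4 (-1.90), Lefty2 (-1.21) and Tfap2a (-1.21) fell.

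Most genes of the 2-cell embryo rose, and 4 genes that regulate Dux fell. Dux had 8, 11 and 3 reads untreated and 282, 420 and 428 treated (5.17, SE 0.262, adjusted p = 9.2e-39, limma). Gm12794 (3.50), Tmem92 (3.44) and Usp17le (3.14), known as markers of 2-cell-like cells, rose next after Dux. Of 34 listed 26 were tested, and 22 rose and 4 fell on the deposited and centred scales, but 8 of the 26 lay below 0 in every untreated library, so that they could enter only through treated libraries. The 6 in the table that were not tested had at most 18 reads in any untreated and 43 in any treated library. The 4 that fell are known as regulators of Dux: Trim28, the corepressor KAP1, stood at 11.71, 11.79 and 11.53 untreated and at 9.90, 9.78 and 9.83 treated (-1.84, SE 0.096), and Smchd1, a chromatin repressor, fell by 0.68, while the activators Dppa2 and Dppa4 fell by 1.61 and 1.10. Dux, Usp17 and Zscan4 genes exist in near-identical copies, so the split of reads among copies is uncertain.

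The aryl hydrocarbon receptor is a sensor of planar aromatic compounds that switches on genes of their metabolism. Cyp1a1, the cytochrome P450 by which activity of the receptor is usually read, had 44, 57 and 30 reads untreated and 2190, 2986 and 2390 treated (5.31, SE 0.145, adjusted p = 2.2e-66, limma). Cyp1b1 rose from 40, 42 and 29 to 1076, 1310 and 1362 reads (4.51), Cyp1a2 by 1.68 and the aldehyde dehydrogenase gene Aldh3a1 by 1.00. Of 10 members tested out of 12, 6 rose and 1, the receptor's partner Arnt (-1.01), fell as deposited, where 24.5% and 56.9% of all genes did so, and 2 of the 10 lay below 0 in every untreated library and could enter only through treated libraries; Tiparp (0.98) and Nqo1 (0.54) were the remaining rises. After centring 9 rose, Ahr (0.08 as deposited) and Nfe2l2 (0.12) among them, and 1 fell. Ahrr, the repressor of the receptor, was at 0.43 and not called as deposited (adjusted p = 0.067), called after centring (0.64) and below 0 after quantile normalization (-0.17). Ugt1a6a, below the filter, had 0, 0 and 3 reads untreated and 40, 62 and 61 treated. Cyp1a1 at 8 h was 4.68 higher in BMH-21 than in CX-5461 (SE 0.145, adjusted p = 1.5e-58, limma), and Cyp1b1 3.03 higher (adjusted p = 2.2e-38). Over 2, 4 and 8 h of BMH-21 the log2 fold change of Cyp1a1 against untreated cells was 7.50, 6.19 and 5.31, and after 8 h of CX-5461 it was 0.63. Tested directly, the value at 8 h was 0.89 below that at 4 h (adjusted p = 8.2e-08).

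The core letters of the receptor's response element, GCGTG, were searched on both strands of the same promoter windows; the motif can overlap other CpG-containing motifs. The windows of Cyp1a1 and Cyp1b1 are shown as the promoters of the 2 largest rises of the list, with GCGTG or its reverse complement CACGC in capitals. Cyp1a1 is chr9:57697363-57697662 on the plus strand and Cyp1b1 chr17:79715012-79715311 on the minus strand.
Cyp1a1: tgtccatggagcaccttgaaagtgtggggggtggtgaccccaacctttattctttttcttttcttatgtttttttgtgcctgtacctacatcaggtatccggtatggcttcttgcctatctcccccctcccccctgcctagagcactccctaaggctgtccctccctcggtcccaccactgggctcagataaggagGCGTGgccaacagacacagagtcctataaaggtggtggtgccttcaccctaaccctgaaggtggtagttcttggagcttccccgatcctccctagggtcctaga
Cyp1b1: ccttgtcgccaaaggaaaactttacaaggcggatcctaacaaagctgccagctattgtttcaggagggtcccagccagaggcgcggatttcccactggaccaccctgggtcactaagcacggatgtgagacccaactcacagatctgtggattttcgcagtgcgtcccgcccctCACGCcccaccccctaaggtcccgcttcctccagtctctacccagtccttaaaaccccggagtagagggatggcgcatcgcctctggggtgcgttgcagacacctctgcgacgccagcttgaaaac
Each window held 1 copy, 54 and 76 bases before the start. The motif is short and was found in 50.5% of all promoters, 42.6% of those of genes that rose at least 2-fold and 47.4% of those that fell, so holding it is common.

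Genes of AP-1 and the immediate early response rose more often than they fell: of 27 tested out of 28, 16 rose and 6 fell as deposited (19 and 6 after centring), with a median of 0.77, and 4 of the 27 lay below 0 in every untreated library. The FOS-family gene Fosl1 went from 6, 13 and 14 to 525, 576 and 617 reads (5.16), Atf3, a stress-induced bZIP factor, from 78, 77 and 66 to 1547, 2231 and 2010 (4.13), Dusp2, a MAP kinase phosphatase, rose by 3.59 and Fosl2 by 3.03. The falls were of Spry4 (-2.34) and Spry2 (-1.01), feedback inhibitors of FGF signalling, Dusp4 (-1.24) and Dusp6 (-0.63), ERK phosphatases, Ier2 (-1.12) and Nr4a1 (-0.48). Nr4a2, below the filter, had 40, 32 and 37 reads untreated against 22, 24 and 29.

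In the MYC network Myc stood at 6.49, 6.50 and 6.32 untreated and at 4.93, 4.75 and 4.93 treated (-1.57, SE 0.108, adjusted p = 1.5e-27, limma), and Mycn fell by 1.11. The MYC antagonists split: Mxd4 (2.58) and Mxd1 (1.72) rose, and Mxd3 (-1.31) and Mxi1 (-1.16) fell. Of 16 members 4 rose and 11 fell on the deposited and the centred scale, shares near the 24.5% and 56.9% of all genes as deposited, so that nothing is read from them about the list; Tert (0.66), telomerase, and Cad (0.52), of pyrimidine synthesis, both known as MYC targets, were the other rises.

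Stress genes were divided. Of 25 genes of the integrated stress and unfolded protein responses 8 rose and 14 fell as deposited, shares near those of all genes, with a median of -0.40 against -0.40 over all genes. Beside Ddit4, the lipoprotein receptor gene Vldlr (1.29), Atf5 (1.23) and Cebpb (1.17) rose. Atf4, the central factor of the integrated stress response, stood at 7.47, 7.53 and 7.26 untreated and at 6.32, 6.20 and 6.27 treated (-1.16, SE 0.106), and its targets Chac1 (-2.02) and Asns (-1.57) fell, as did Nupr1 (-1.56). Among 16 heat shock genes 3 rose and 13 fell. The risers were the inducible Hspa1a (1.49) and Hspa1b (0.88), near-identical neighbours whose reads may be split, and Dnajb1 (0.96). The constitutive Hspa8 fell from 354737, 348324 and 315964 to 163197, 202357 and 164866 reads (-1.51), Dnaja1 by 1.44, Hsph1 by 1.30 and Bag3 by 1.27.

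Most cell cycle genes tested were lower, as were 56.9% of all genes as deposited and 51.3% after centring. Of 39 DNA replication genes none rose and 37 fell as deposited (2 and 37 after centring), 10 of them at least 2-fold as deposited and 4 after centring: Ccne1, cyclin E1 (-1.50), Pold1 (-1.49) and Pcna (-1.42), of the replication fork, and Mcm10 (-1.25) led. Of 40 genes of G2 and mitosis 34 fell and none rose as deposited, with Plk1 (-1.34), Mybl2 (-1.34), Kif20a (-1.30) and Cdk1 (-1.10) lowest, while 3 were higher and 32 lower after centring and 9 higher and 21 lower after quantile normalization. Of 25 genes of RNA polymerase II elongation and pausing 3 rose and 20 fell as deposited (3 and 18 after centring), against the same 56.9% and 51.3% of all genes lower. The lowest were Aff4 (-1.49), scaffold of the super elongation complex, Hexim2 (-1.17), Nelfe (-1.06), of the pausing factor NELF, and Ccnt2 (-0.97), a P-TEFb cyclin. Ell3 (0.60), Ell (0.33) and Polr2b (0.32) rose. Aff4 was lowest in treated replicate 2, at 6.72 against 7.43 and 7.25.

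**Figure D4:**
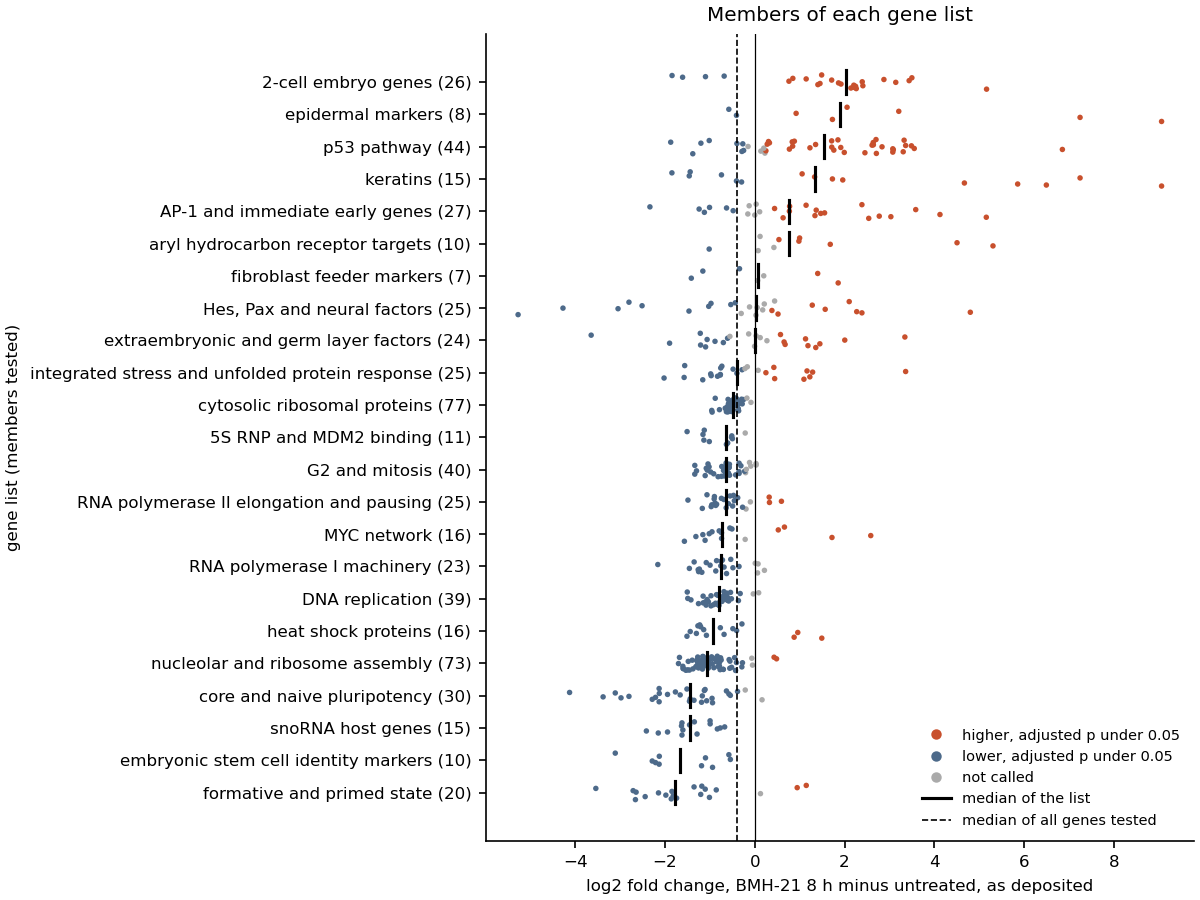
Log2 fold change (x axis, treated minus untreated, deposited scale) of each tested member of the 23 gene lists, in red where called higher, blue where called lower and grey where not called; black bars are list medians and the dashed line the median of all genes tested, -0.40. Medians run from -1.78 for formative and primed genes to 2.03 for 2-cell embryo genes; after quantile normalization the ribosomal protein genes lie mostly above 0.

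Keratins mark epithelia, so markers of other cells were checked. The summed linear level of the 12 epidermal markers was 22.3 to 26.4 in the untreated and 248 to 319 in the treated libraries; without Krt5 and Krt15 it was 21.7 to 25.4 and 49.1 to 66.6. Of the 8 tested 6 rose and 2 fell as deposited (6 and 1 after centring), but 4 of the 8 lay below 0 in every untreated library and could enter only through treated libraries. Among the 8 tested, Dsc3, a desmosome cadherin (3.21), Itgb4, an integrin of hemidesmosomes (2.06), and Lor, loricrin (0.92), rose. Col17a1, a hemidesmosome collagen (-0.58), fell, as did Krt10 on the deposited scale only. Trp63, the master factor of basal epidermis, had 3, 4 and 6 reads untreated and 12, 18 and 8 treated, Ivl at most 8 and Dsg3 at most 7 in any library. Of 12 fibroblast markers, since fibroblasts can serve as feeder cells, 11 were in the table, and their sum was 88.0 to 106 untreated and 109 to 126 treated; Col1a1 (1.86) and Mmp2 (1.40) rose, Thy1 (-1.41) and Acta2 (-1.16) fell. Dcn had at most 14, Lum at most 2 and Col3a1 at most 18 reads. The part of other cells in these results was not tested.

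Between 4 h and 8 h of BMH-21, tested directly, 8267 genes (56.4%) differed: 2726 genes (18.6%) were higher and 5541 (37.8%) lower at 8 h as deposited, 4151 (28.3%) and 6183 (42.2%) after centring, and 5380 and 4770 with median-ratio factors. Of the 26 genes of the 2-cell embryo 21 were higher at 8 h than at 4 h and 3 lower, with a median difference of 1.44 against -0.14 over all genes. As 8 of the 26 could enter only through treated libraries, where they were high, this count and median support nothing by themselves. Over 2, 4 and 8 h the log2 fold change of Tmem92 was 0.07, 0.88 and 3.44 (8 h against 4 h: 2.56, SE 0.209, adjusted p = 3.6e-21, limma), that of Gm12794 0.88, 0.68 and 3.50, and that of Dux 1.40, 4.20 and 5.17. Of the p53 list 7 of 44 were higher and 18 lower at 8 h (13 and 21 after centring). Cdkn1a was at 2.67, 2.70 and 2.46 and Trp73 at 1.91, 4.14 and 3.49, and Fas at 2.77, 6.00 and 6.85. Of the ribosome assembly genes 66 of 73 were lower at 8 h than at 4 h and none higher, with Npm1 at -0.07, -0.27 and -1.15. Hes3 (8 h against 4 h: -3.32), Pax8 (-2.80) and Slc7a3 (-2.32) were lower at 8 h than at 4 h by more than they had been below untreated at 4 h (-1.96, -1.47 and -1.05).

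Some genes were lower at 4 h than at 8 h. Foxd3 was at -1.79, -4.72 and -4.13 at 2, 4 and 8 h, and the value at 8 h was 0.59 above that at 4 h (adjusted p = 1.6e-05, limma). Zic2 was at -1.21, -3.86 and -2.64, Zic5 at -1.40, -4.21 and -2.71, Mir124a-1hg at -1.36, -4.29 and -2.80, and Klf2, a naive pluripotency factor, at -1.15, -1.96 and -1.07. In each of these 5 genes 8 h was higher than 4 h on both scales. Ahrr was at 3.46, 2.12 and 0.43, with 8 h 1.70 below 4 h (adjusted p = 6.0e-11, limma).

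CX-5461 was given at the same dose. Directly compared at 8 h, 11615 genes (79.2%) differed: 1754 genes (12%) were higher in BMH-21 and 9861 (67.2%) lower as deposited, but 4559 (31.1%) and 5954 (40.6%) after centring and 5044 and 5338 with median-ratio factors; the median difference of all genes was -0.48 as deposited and -0.06 after centring. Both comparisons with untreated cells share those 3 libraries, so their values are set side by side without further reading. As deposited, 8 h of CX-5461 had 35.1% of genes higher and 14.3% lower than untreated cells, and 4 h of BMH-21 22.1% and 44.9%. Krt5 was at 9.06 in BMH-21 and 6.59 in CX-5461 (difference 2.47, SE 0.138, adjusted p = 4.3e-34, limma), Fas at 6.85 and 4.34 (2.51), and Cdkn1a at 2.46 and 1.87 (0.58). Rises of keratins were not particular to BMH-21: of the 15 tested, 12 were higher and 1 lower after 8 h of CX-5461 than in untreated cells as deposited. As said above, 4 of the 15 could enter the test only through treated libraries. Of the pluripotency and formative lists 29 of 30 and 18 of 20 members were lower in BMH-21 than in CX-5461 (25 and 17 after centring). Many pluripotency genes also fell with CX-5461: against untreated cells, 20 of the 30 were lower and 2 higher (26 and 2 after centring). In the formative list 6 of the 20 were lower with CX-5461 and 5 higher (14 and 4 after centring). Foxd3 was at -4.13 and -0.59, Fgf15 at -3.54 and 0.18, Prdm14 at -2.98 and -0.08, Nanog at -2.13 and -0.26, and Spry4 at -2.34 and 0.20. Ubtf was at -2.16 and -0.45 (difference -1.71, adjusted p = 2.7e-31). For other genes no difference was detected as deposited: Tmem92 was at 3.44 and 3.36 (0.09, SE 0.209, adjusted p = 0.71), Cdx2 at 1.36 and 1.26 (adjusted p = 0.74) and Itgb4 at 2.06 and 2.08 (adjusted p = 0.86), and Tmem92 and Itgb4 were called higher in BMH-21 after centring (0.51, adjusted p = 0.029, and 0.40, adjusted p = 7.4e-05). Ribosomal proteins were lower in BMH-21 in 76 of 77 as deposited and in 3 of 77 after centring, where 5 were higher.

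**Figure D5:**
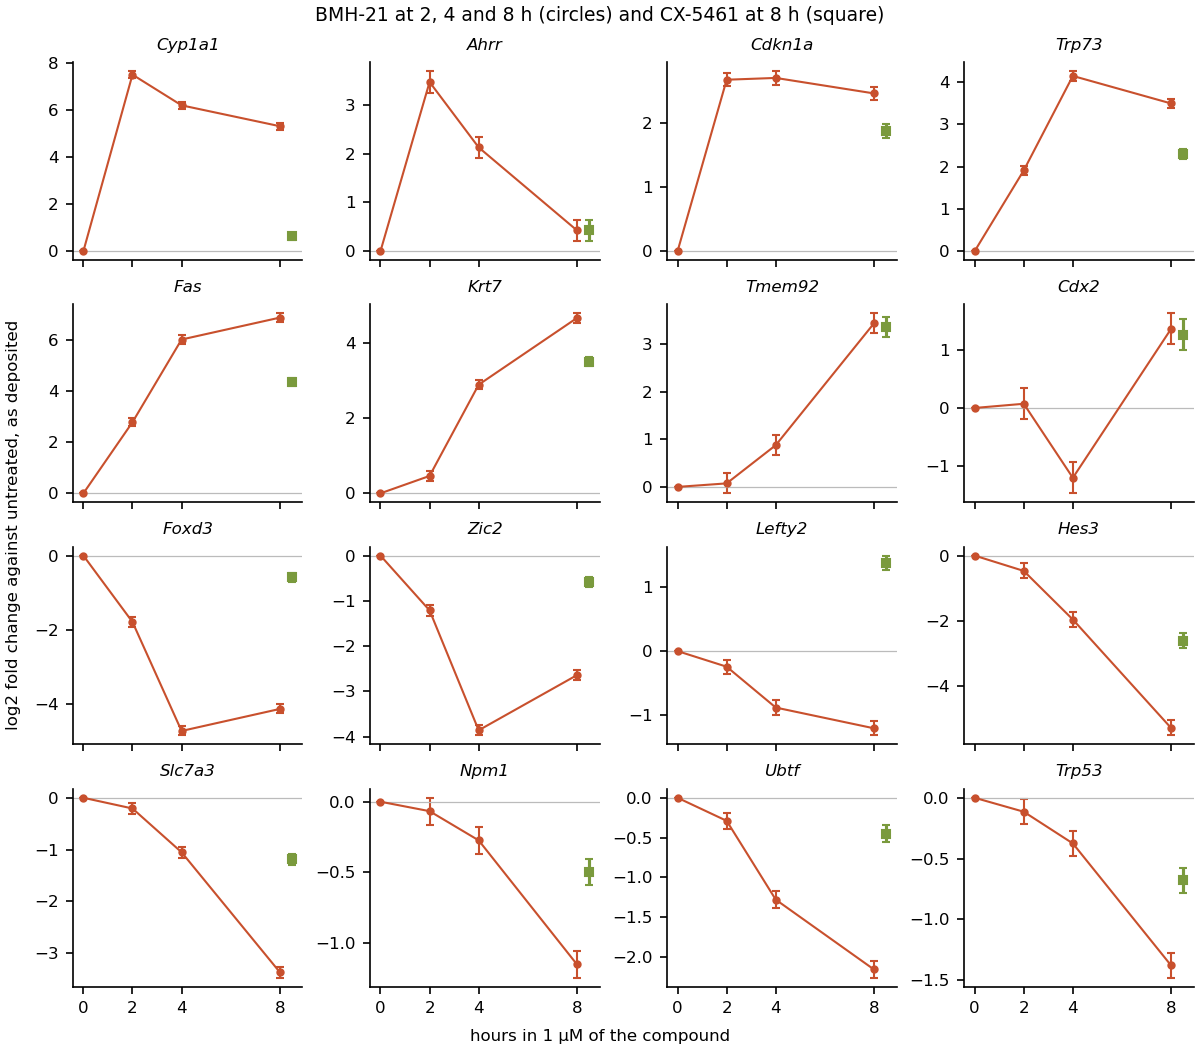
Log2 fold change against untreated (y axis, deposited scale, separate range in each panel) of 16 genes after 2, 4 and 8 h of BMH-21 (circles joined by lines, 0 h set to 0) and 8 h of CX-5461 (square, drawn beside 8 h), with bars of 1 SE. Cyp1a1 and Ahrr peak at 2 h, Foxd3 and Zic2 are lowest at 4 h, Cdx2 is below 0 at 4 h and above it at 8 h, and Hes3, Slc7a3, Npm1 and Trp53 are lowest at 8 h.

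Rising and falling genes also differed in level, which the fold change and the filter use, and in span and promoter composition, which they do not. Genes that rose at least 2-fold on both scales (2104) had a median level of 0.54 in untreated cells, against 4.83 for the 1698 that fell and 4.45 for all tested, values given as a description. Their genes spanned a median of 29207 bases, against 19687 for those that fell and 22617 for all, and their promoters held a median of 15 CpG dinucleotides in 300 bases, against 19 and 20. Over 5 groups of equal size by gene span the median log2 fold change ran from -0.47 in the shortest to -0.23 in the longest genes, and over 5 groups by transcript GC from -0.54 at the lowest GC to -0.30 at the highest. Median level ran from 4.60 in the group of lowest GC to 4.01 in that of highest GC. By span it did not run in 1 direction, with 3.61 in the shortest genes, 4.78 in group 4 and 4.06 in the longest. The lowest group by level had a median span of 18502 bases. The separate parts of level and these traits were not tested. The 490 genes of the X chromosome had a median of -0.59, with 28.2% down and 5.92% up at least 2-fold as deposited, against 18.4% and 14.4% of all genes. After centring 19.2% were down and 7.55% up, against 11.6% and 16.6%. The X chromosome is given because its median was the lowest of the chromosomes examined. Its genes also had a median transcript GC of 45.7% and a median level of 3.91, against 50.1% and 4.315 of all genes tested. The parts of GC, level and chromosome were not tested.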

How the data were processed

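The deposited table holds log2 values of 20900 genes in 21 libraries of mouse cells. The submitters' processing notes name the mm10 genome, Trim Galore 0.5.0, TopHat2 2.1.1, R 4.0.5, limma 3.46.0, edgeR 3.32.1 and DESeq2 1.30.1, with no role or order; the counting tool, its strand setting and the annotation are not given in the sources used here. The values themselves show how the authors scaled them: each is the log2 of a read count with 0.5 reads added, divided by an effective library size (CPM), since whole reads were recovered from every column with a largest deviation of 1.7e-08. Those effective sizes differ from the total reads by group, which moves every fold change, and so results were also computed after centring each library on its median.

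From the deposited log2 values, limma 3.58.1 in R 4.3.3 fitted 7 group means over all 21 libraries with 3 replicates each, with moderated variances that follow the mean level (eBayes with trend). All groups were fitted so as to share 1 estimate of the spread. P-values were adjusted by Benjamini-Hochberg over the 14666 genes above 0 in at least 3 libraries, with a threshold of 0.05; the other 6234 genes were not tested. "Called" means past that threshold. The script was tested on simulated data. Genes were named by rule: 10 fixed genes, the 10 largest rises and falls at a mean level of at least 0, the 6 at a mean level of at least 6, and up to 4 per list and direction, each passing on both scales without overlap, and list members that account for the rest; genes outside the rule are said to be chosen by their reads, their locus or their promoter. The members, lists and rule were chosen with earlier results of these data known. Alternatives were other scalings (median-ratio factors from the recovered reads, quantile normalization), filters, offsets, variance models, a GC trend, a replicate block and leaving out each library; robust variances after centring were added after seeing the data. Promoters are RefSeq sequences of GRCm38.p6, read from the first listed start of each gene; gene positions are of the same build. Figures were drawn with matplotlib 3.10.9.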

Additional observations from a re-analysis of the deposited data

Results flagged for a closer look

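Between 4 h and 8 h of BMH-21, 8267 genes differed, and between BMH-21 and CX-5461 at 8 h, 11615 genes (limma, Benjamini-Hochberg). Among the members of the 23 lists, those called in opposite directions against untreated cells in the groups compared are given here; both contrasts share the untreated libraries, and each difference was tested directly between the treated groups.

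Against 4 h, 6 members had opposite calls. Cdx2, a trophoblast factor, was at -1.20 at 4 h and 1.36 at 8 h, a difference of 2.56 (SE 0.267, adjusted p = 4.3e-15, limma). Insm1, a zinc finger factor of neuroendocrine cells, differed by 2.90, the stress-induced Klf6 by 1.96, Tfap2c, of germ cells and trophoblast, by 1.30, and Herpud1, of the endoplasmic reticulum, by 1.06. Nr4a1, an orphan nuclear receptor, went the other way, with a difference of -0.88.

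Against CX-5461, 12 members were called lower in BMH-21 and higher in CX-5461. Lefty2, a Nodal antagonist, was at -1.21 in BMH-21 and 1.39 in CX-5461, a difference of -2.60 (SE 0.113, adjusted p = 9.4e-44, limma). The difference was -2.20 for Pou3f1 and -2.04 for Neurog1, both neural factors, -1.97 for Eomes, of mesendoderm, and -1.91 for the keratin Krt17. It was -0.95 for Tdgf1, the Nodal co-receptor, -0.94 for Id1 and -0.99 for Id4, inhibitors of helix-loop-helix factors, and -1.17 for Nr4a1. The endoplasmic reticulum chaperones Hsp90b1 and Pdia4 differed by -0.92 and -1.28, and the snoRNA host Snhg11 by -1.45. Against untreated cells, Tdgf1 and Hsp90b1 turned after quantile normalization, to 0.11 and 0.23, so their opposite calls depend on the scale.

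Of the genes below the filter on low values, which no test used, 102 had at most 3 reads in each untreated library and at least 20 in each treated one.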

How the results depend on the processing

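Of 235 genes named or given, 196 kept their direction and their side of the threshold under every alternative that could be run for them, 39 did not under at least 1, and 20 of these changed sign. The number of changed genes was 11948 and became 5961 (2255 higher, 3706 lower) when a change of over 1.5-fold was tested for; it lay between 11422 and 11871 when 1 library was left out. With 1 library left out, genes changed at least 2-fold numbered 4557 to 5075, those differing from CX-5461 10930 to 11469 and those differing from 4 h 7414 to 7876, and other alternatives gave 3632 to 6585, 10045 to 12465 and 7181 to 10334. No pairing by replicate number was seen: deviations of same-numbered treated and untreated libraries correlated at -0.015, 0.056 and 0.093, and not every library correlated best with its own number. The largest correlation, 0.383, was between treated replicate 2 and replicate 3 of BMH-21 at 4 h. With 3 libraries per group these values cannot show that no pairing exists. With the replicate block the 4 counts were 11868, 4804, 11540 and 8116.

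The cause of the sign changes was not tested. After centring, and alike with robust variances after centring, Ei24 was at 0.063 and Socs3 at 0.001. With median-ratio factors the values were 0.207 for Ei24, 0.110 for Bax, 0.063 for Krt8, 0.146 for Socs3, 0.145 for Cdkn2a, 0.071 for Plk3, 0.091 for Xpc and 0.007 for Col6a6. With quantile normalization they were 0.311 for Rn45s, 0.388 for Ei24, 0.377 for Bax, 0.138 for Rrn3, 0.035 for Rpl5, 0.019 for Rpl11, -0.171 for Ahrr, 0.318 for Socs3, 0.013 for Plk3, 0.007 for Xpc, 0.110 for Tdgf1, 0.232 for Hsp90b1 and -0.258 for Cfap126. With 1 library left out, Top1 lay between -0.044 and 0.084, Polr1a between -0.011 and 0.193, Ahr between -0.017 and 0.200 and Ttf1 between -0.023 and 0.153. A GC value was known for 14145 genes (96.4%). With 3 libraries per group, genes under about 50 reads are measured least well.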
